A study of Mus musculus with 12 samples.

Results

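A set of 9 genes was read here across the whole series: the calcium/calmodulin-dependent kinase subunits Camk2a and Camk2b, the calmodulin binder Nrgn, and the postsynaptic density scaffolds Dlg4, Dlgap1, Shank1, Shank2, Shank3 and Homer1. They were chosen by name as a functional group, and each of the 9 symbols matched 1 Ensembl identifier among the 33560 genes with counts. RNA was sequenced from neurons differentiated in culture from mouse embryonic stem cells and harvested at day 21 in vitro, in 12 libraries that fall into 4 groups of 3. The groups were WT neurons given water (WT vehicle), WT neurons given 10 µM of the ROCK inhibitor Y-27632 (WT inhibitor), and neurons carrying the Daam1-MIC_KO genotype, a Daam1 microexon knockout (KO), given water (KO vehicle) or the same dose of Y-27632 (KO inhibitor), with an exposure of 2 h in every group. Daam1 encodes a formin, a protein that builds actin filaments, and Y-27632 blocks the kinase ROCK. Each genotype had 3 labelled cell lines, and each of these 6 lines gave 1 vehicle and 1 inhibitor library. The labels do not say whether a line is 1 clone, nor whether the libraries of a group come from separate differentiations, so the p-values measure the spread between these libraries, which may be technical. The series text speaks of hippocampus of adult mice, while every sample label describes cultured neurons; the sample labels were followed.

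The postsynaptic density is the protein mesh under the membrane of an excitatory synapse. Dlg4 (PSD-95 protein) anchors glutamate receptors at the membrane, Dlgap proteins link it to Shank proteins deeper in the mesh, and Shank binds Homer, which ties the mesh to metabotropic receptors and, with Shank, to the actin of the dendritic spine. CaMKII, built from alpha (Camk2a) and beta (Camk2b) subunits in forebrain neurons, is switched on by calcium-bound calmodulin, and the beta subunit also binds actin; neurogranin (Nrgn) holds calmodulin when calcium is low. In the maturing forebrain Camk2a and Nrgn are known as late genes of glutamatergic neurons.

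Positions are those of GENCODE M21 on GRCm38. Camk2b (ENSMUSG00000057897) spans chr11:5969644-6066362 on the minus strand. Nrgn (ENSMUSG00000053310) spans chr9:37544492-37552904 on the minus strand. Dlg4 (ENSMUSG00000020886) spans chr11:70016942-70047522 and Dlgap1 (ENSMUSG00000003279) chr17:69969073-70821413, both on the plus strand. Shank1 (ENSMUSG00000038738, chr7:44310253-44360572), Shank2 (ENSMUSG00000037541, chr7:144001928-144424494), Shank3 (ENSMUSG00000022623, chr15:89499623-89560261) and Homer1 (ENSMUSG00000007617, chr13:93299635-93405129) are also on the plus strand. Counts are summed per gene, so splice forms, such as the short activity-induced Homer1a, are not separated.

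The 250 bases before a RefSeq start are shown for 4 members because they belong to the 7 members that were low together in 1 library, as described further on, and because the first start listed for each has no annotated exon in this window. The sequences are those of RefSeq on GRCm38.p6. Camk2a was left out before counting, and the promoters kept were 10 starts of 6 members. Capitals mark the GC box (GGGCGG, a site type bound by Sp1-like factors) and the short CRE motif (TGACG, a site type bound by CREB-like factors), each searched on both strands and written in the orientation of the gene. The regions are chr11:6065749-6065998 on the minus strand for Camk2b, chr15:89499358-89499607 on the plus strand for Shank3, chr13:93303507-93303756 on the plus strand for Homer1 and chr17:69968823-69969072 on the plus strand for Dlgap1.
Camk2b: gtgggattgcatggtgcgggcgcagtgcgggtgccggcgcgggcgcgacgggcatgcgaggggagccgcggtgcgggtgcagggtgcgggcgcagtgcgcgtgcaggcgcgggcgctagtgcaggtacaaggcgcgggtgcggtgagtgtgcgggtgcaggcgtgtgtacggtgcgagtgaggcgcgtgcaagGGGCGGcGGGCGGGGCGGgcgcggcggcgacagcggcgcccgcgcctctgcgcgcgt
Shank3: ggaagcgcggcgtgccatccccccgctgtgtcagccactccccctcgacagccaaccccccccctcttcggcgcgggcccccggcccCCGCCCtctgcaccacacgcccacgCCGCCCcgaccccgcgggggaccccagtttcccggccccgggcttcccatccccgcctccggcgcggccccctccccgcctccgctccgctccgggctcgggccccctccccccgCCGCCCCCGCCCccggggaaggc
Homer1: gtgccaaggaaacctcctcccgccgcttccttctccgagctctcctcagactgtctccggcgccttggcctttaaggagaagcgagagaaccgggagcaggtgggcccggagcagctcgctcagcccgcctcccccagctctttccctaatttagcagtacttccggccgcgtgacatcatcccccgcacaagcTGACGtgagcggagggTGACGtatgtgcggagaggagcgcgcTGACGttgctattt
Dlgap1: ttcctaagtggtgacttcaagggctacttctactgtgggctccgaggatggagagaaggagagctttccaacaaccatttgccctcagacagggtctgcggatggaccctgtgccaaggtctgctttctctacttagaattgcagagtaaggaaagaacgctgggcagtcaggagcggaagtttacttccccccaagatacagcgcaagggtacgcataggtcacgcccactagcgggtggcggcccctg

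These start regions differ widely in base composition. Camk2b has 78.4% G and C with 44 CG pairs and 3 GC boxes, and Shank3 82.4% with 31 CG pairs and 4 GC boxes; some of these boxes share letters. Homer1 has 62.4% with 21 CG pairs, no GC box and 3 short CREs. Dlgap1 has 55.2% with 9 CG pairs and neither motif. Across the same 250-base window of 32851 promoters the median was 52.4% G and C with 6 CG pairs; 32.7% held a GC box and 17.8% a short CRE. Among the 10 member starts counted, with Camk2a left out, 4 held a GC box and 2 a short CRE. The TATA box (TATAAA) and the CArG box were found in 0 of the 10, against 12.4% and 1.47% of all promoters, and the E box (CAGCTG) in 1, against 13%. The Homer1 and Camk2b regions lie inside the genes as GENCODE annotates them, in introns. A match is a run of letters only; no binding was measured here.

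Library totals ran from 23253566 to 35012561 counts. The KO inhibitor library of line 3 stood apart from the rest: on the first principal component, with 74.3% of the variance of 15443 genes, it lay at 163, and its median correlation with the others was 0.854 (Pearson's r across genes, which are not independent replicates). On the same side lay WT vehicle line 2 (68.1) and WT inhibitor line 3 (60.3), while the other 9 ran from -73.8 to 1.41. These 2 had the next lowest median correlations (0.953 and 0.967, against 0.972 to 0.986 for the other 9) and were closest to each other (r of 0.985) across both line and treatment. Whether their labels were exchanged was not tested, and the ratios within WT lines 2 and 3 rest on those labels. Summed neuronal markers were at 940.0 cRPKM (RPKM, reads per length and library size, in the authors' corrected form) in the KO inhibitor library of line 3 and between 2430 and 3370 cRPKM in the other 11, with all 10 genes detected in each. Astrocyte markers (6 genes) summed to 419 cRPKM in it against 21.2 to 113, and progenitor markers (7 genes) to 363 against 17.6 to 149. Mesenchymal markers (8 genes) summed to 273 cRPKM in WT vehicle line 2 and 179 in WT inhibitor line 3, against 6.03 to 88.3 in the other 10. The sample labels call the neurons glutamatergic. Slc17a6, a vesicular glutamate transporter, was at 58.8 to 102 cRPKM in 11 libraries and 13.4 in the KO inhibitor library of line 3. The cortical and hippocampal markers Slc17a7, Neurod6, Neurod2 and Tbr1 were at or below 0.70 cRPKM in every library. Gad1, a marker of GABAergic neurons, was at 46.7 to 76.3 cRPKM in the 11 libraries and 27.8 in the KO inhibitor library of line 3. Of the same list of 7 genes, Gad2 was at 25.1 to 40.3 cRPKM and Slc32a1 at 45.3 to 73.5 in the 11 libraries. Lhx6 had a median of 4.95 cRPKM over them, and Dlx1, Dlx2 and Dlx5 were at or below 0.29 cRPKM in every library. Microglial markers (5 genes) summed to 3.77 cRPKM in KO inhibitor line 3 and 0.31 to 3.02 in the other 11, with Csf1r at up to 405 counts and Cx3cr1 and P2ry12 at 1 count at most. In bulk RNA, fewer cells of a type and less RNA per cell cannot be told apart.

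**Figure D1:**
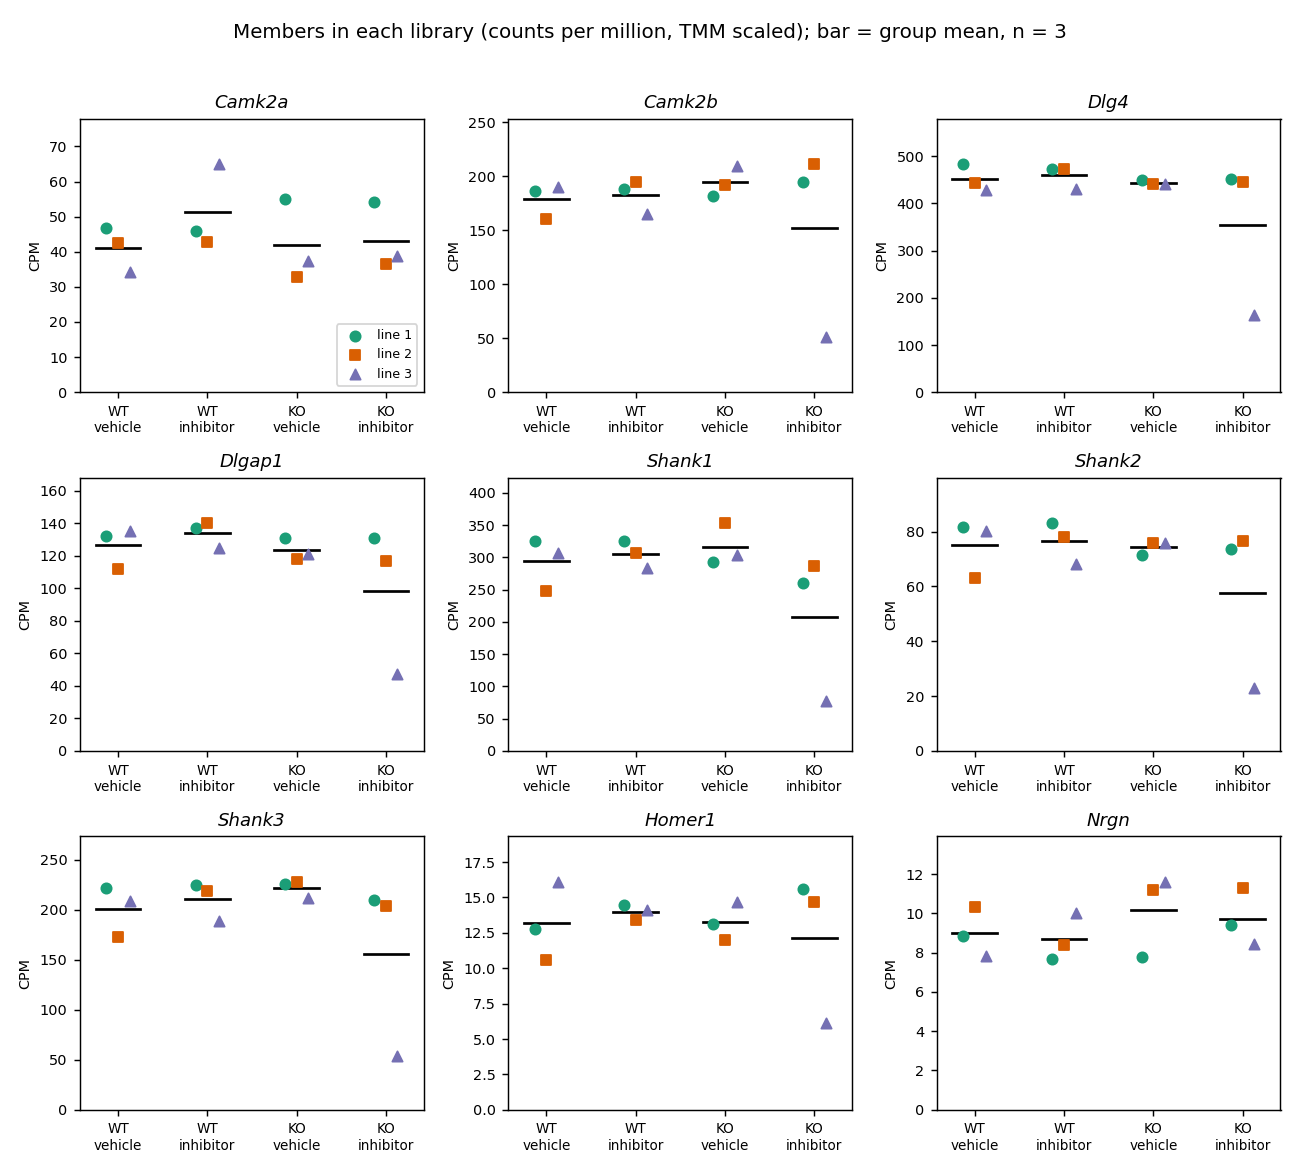
Each of the 9 genes in each of the 12 libraries, in CPM scaled with TMM factors (y axis, from 0), with 1 point per library shaped by line and a bar at the mean of each group (n = 3). The KO inhibitor library of line 3 lies below the other 11 for 7 genes and among them for Camk2a and Nrgn.

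Compared per length, Dlg4 and Camk2b were the most abundant members and Homer1 the least. Over the 11 libraries other than KO inhibitor line 3, Dlg4 averaged 132 ± 6.44 cRPKM (SD, n = 11) and Camk2b 121 ± 10.4, higher than 98.8% and 98.7% of genes with counts. Shank1 (31.1 ± 3.38) and Shank3 (28.7 ± 2.52) followed, then Dlgap1 (17.8 ± 1.45). Camk2a (9.10 ± 2.02), Shank2 (8.40 ± 0.769), Nrgn (6.71 ± 1.01) and Homer1 (5.67 ± 0.714) were lowest, above at least 75.0% of genes with counts. These shares are over all 33560 such genes, of which only 15443 passed the filter on low counts, so they are not shares of expressed genes. Camk2a and Shank2 overlapped across libraries, as did Shank2 and Nrgn, and Nrgn and Homer1; so did Dlg4 and Camk2b, and Shank1 and Shank3. The length behind the authors' values is not the full exonic length: for Camk2b it comes to 1554 bases against 9125 annotated exonic bases, and for Homer1 to 2419 against 11976. Per annotated exonic kilobase the order became Dlg4, Shank1, Shank3, Camk2b, Dlgap1, Shank2, Nrgn, Camk2a and Homer1, so Camk2b moved from rank 2 to rank 4 and Camk2a from rank 6 to rank 8.

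Values per library are given in CPM (counts relative to the TMM-adjusted total of the library), always for lines 1, 2 and 3 in that order. Camk2a (ENSMUSG00000024617, chr18:60925618-60988152, plus strand, GRCm38) encodes the alpha subunit. In WT lines 1, 2 and 3, Camk2a was at 46.8, 42.5 and 34.2 CPM in vehicle and at 45.9, 42.8 and 64.9 CPM with inhibitor. In KO lines 1, 2 and 3 it was at 55.1, 32.8 and 37.5 CPM in vehicle and at 54.1, 36.4 and 38.9 CPM with inhibitor. The highest value was the WT inhibitor library of line 3, the groups overlapped, and the KO inhibitor library of line 3 was in the middle of the range. Camk2b, the beta subunit, was at 186, 160.0 and 190.0 CPM in WT vehicle and at 188, 195 and 165 CPM in WT inhibitor libraries. Its KO libraries held 182, 192 and 209 CPM in vehicle and 195, 211 and 51.3 CPM with inhibitor. Here 11 libraries lay within 160.0 to 211 CPM, and the KO inhibitor library of line 3 was far below them. Nrgn was at 8.84, 10.3 and 7.83 CPM in WT vehicle and at 7.69, 8.39 and 10.0 CPM in WT inhibitor libraries. In KO lines it was at 7.76, 11.2 and 11.6 CPM in vehicle and at 9.41, 11.3 and 8.43 CPM with inhibitor. Nrgn had no library far from the rest, while Camk2a was at 64.9 CPM in the WT inhibitor library of line 3 and at 32.8 to 55.1 CPM elsewhere.

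Among the scaffolds, Dlg4 was the most even across libraries. It was at 483, 444 and 429 CPM in WT vehicle, 474, 474 and 430.0 in WT inhibitor, 450.0, 442 and 441 in KO vehicle and 451, 445 and 164 CPM in KO inhibitor libraries. Without the last of these its coefficient of variation was 4.01%, against 22.2% for Camk2a and 15.7% for Nrgn. Dlgap1, which links Dlg4 to the Shank proteins, was at 132, 112 and 135 CPM in WT vehicle, 137, 140.0 and 125 in WT inhibitor, 131, 118 and 121 in KO vehicle and 131, 117 and 47.5 CPM in KO inhibitor libraries. For both genes the groups overlapped, and the lowest library was again KO inhibitor line 3.

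The 3 Shank genes encode the large scaffolds between Dlgap and Homer. Shank1 was at 326, 248 and 307 CPM in WT vehicle and at 326, 306 and 284 in WT inhibitor libraries. In KO lines Shank1 was at 293, 353 and 303 CPM in vehicle and at 260.0, 287 and 77.4 CPM with inhibitor. All 3 KO inhibitor libraries lay below all 3 KO vehicle libraries, while in WT the treatments overlapped. Shank3 was at 222, 173 and 209 CPM in WT vehicle and at 225, 219 and 189 in WT inhibitor libraries. Its KO libraries held 226, 228 and 212 CPM in vehicle and 210.0, 204 and 53.8 CPM with inhibitor. In CPM, though not in cRPKM, Shank3 was thus also lower in each KO inhibitor library than in any KO vehicle library. Shank2 was at 81.6, 63.1 and 80.4 CPM in WT vehicle, 83.1, 78.1 and 68.3 in WT inhibitor, 71.6, 75.9 and 75.8 in KO vehicle and 73.7, 76.6 and 22.8 CPM in KO inhibitor libraries, with overlap in every comparison of 2 groups. Homer1, the partner of Shank, was at 12.8, 10.6 and 16.1 CPM in WT vehicle, 14.5, 13.4 and 14.1 in WT inhibitor, 13.1, 12 and 14.7 in KO vehicle and 15.6, 14.7 and 6.14 CPM in KO inhibitor libraries. The inhibitor library was the higher one in 4 of the 6 Homer1 pairs. Counts of Shank1 include a 339-base stretch of exon shared with the opposite-strand gene 1700008O03Rik, and Shank3 one of 271 bases with Gm15609; these partners averaged 39.5 and 16.8 counts against 8040.1 and 5672.1, and the labels do not say whether counting used strand.

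The first comparison asked what the microexon deletion did in untreated neurons. Estimates lay close to 0 for the members in KO against WT vehicle libraries: log2 fold changes ran from -0.031 ± 0.29 (SE) for Dlgap1 to 0.18 ± 0.21 for Nrgn, with 6 of 9 above 0 and a median of 0.023, where all 15443 genes had a median of -0.010; scaled on library totals 4 of 9 were above 0, and scaled on neuronal markers 0 of 9. Without WT vehicle line 2 the count was 4 of 9 and the median -0.0028. Camk2b was at 0.12 ± 0.40, Shank3 at 0.14 ± 0.39 and Dlg4 at -0.025 ± 0.31. None of the 9 passed edgeR's quasi-likelihood test with Benjamini-Hochberg adjustment over all genes (adjusted p of 0.999 for each). The background is the same, since edgeR called 0 genes (0.0%); 307 genes, but 0 members, had an unadjusted p below 0.05, and DESeq2 called 10 genes (0.0463%), no member among them. No member had libraries that did not overlap between genotypes, against 12.5% of all genes. The 95% intervals were wide in the fit of 12 libraries, whose shared spread includes the KO inhibitor library of line 3. For Dlg4 the fold ran from 0.610 to 1.58, and for Camk2b from 0.586 to 2.01. Without that library the estimates were nearly the same and the intervals narrower, at 0.882 to 1.10 for Dlg4, 0.936 to 1.26 for Camk2b, 0.944 to 1.29 for Shank3, 0.899 to 1.29 for Shank1 and 0.852 to 1.12 for Dlgap1. For Camk2a the interval did not narrow (0.695 to 1.49).

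**Figure D2:**
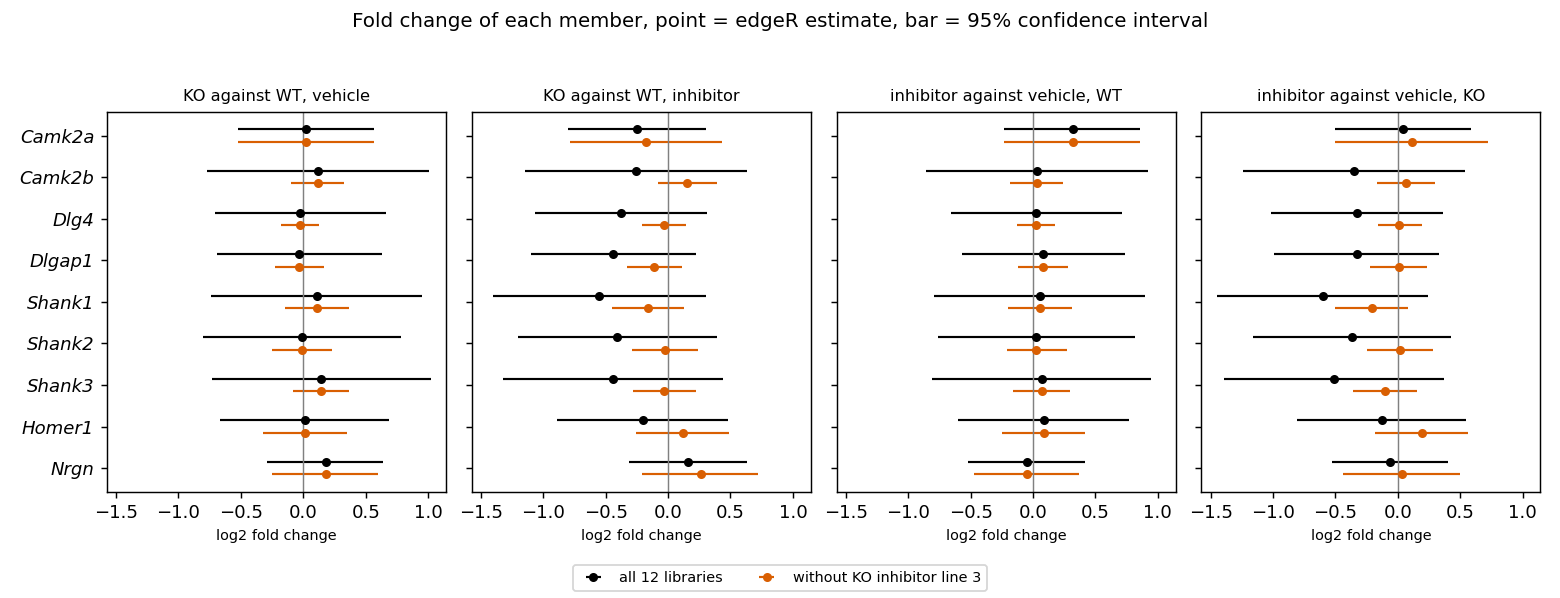
Log2 fold change of each member (x axis) in 4 comparisons, with edgeR estimates as points and 95% confidence intervals as bars, for all 12 libraries (black) and with KO inhibitor line 3 left out (orange). Every interval includes 0; in both comparisons that use the KO inhibitor group, all 9 estimates are higher with that library left out.

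With the inhibitor present, genotype was compared again. Here 8 of 9 members were lower in KO on average, from -0.20 ± 0.31 for Homer1 to -0.55 ± 0.38 for Shank1, with Shank3 and Dlgap1 at -0.44 and Dlg4 at -0.38; Nrgn was at 0.16 ± 0.21, and scaled on neuronal markers 5 of 9 were above 0. The median was -0.38, against -0.00050 over all genes. None passed (edgeR adjusted p of 0.856 to 0.867), as none of all genes did (0.0%; 540 genes and 0 members at an unadjusted p below 0.05; DESeq2 13 genes or 0.0769%, 0 members). No member separated the genotypes without overlap, against 10.5% of genes. Most of these differences moved with 1 library: without KO inhibitor line 3 Shank1 was at -0.16, Dlgap1 at -0.11, Dlg4 at -0.036, Shank3 at -0.029 and Shank2 at -0.024, while Camk2b (0.15) and Homer1 (0.12) changed sign. Camk2a went only from -0.25 to -0.18, and was at -0.042 without WT inhibitor line 3. With KO inhibitor line 3 left out the fold intervals were 0.864 to 1.10 for Dlg4, 0.823 to 1.17 for Shank3 and 0.733 to 1.10 for Shank1.

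The inhibitor was then compared with vehicle in WT neurons, where the members' estimates lay near 0. Log2 fold changes lay between -0.049 ± 0.21 for Nrgn and 0.32 ± 0.25 for Camk2a, with 8 of 9 above 0 and a median of 0.055 (0.011 over all genes). Without WT vehicle line 2 the direction turned for every member other than Camk2a (0.31), leaving 2 of 9 above 0 and a median of -0.057. The Camk2a value came from 1 line, with a log2 ratio of inhibitor to vehicle of 0.92 in WT line 3 and of -0.029 and 0.013 in lines 1 and 2. Without the WT inhibitor library of line 3, one of the libraries that stand apart, Camk2a was at 0.11. No member passed (edgeR adjusted p of 1.00 for each), nor did any gene (0.0%; 47 genes and 0 members at an unadjusted p below 0.05; DESeq2 0 genes). No member's treatments were free of overlap, against 5.97% of genes. Within lines, 5, 8 and 3 of the 9 members were higher with inhibitor in WT lines 1, 2 and 3.

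In KO neurons the averages were lower with inhibitor for 8 of 9 members, but scaled on neuronal markers for 2 of 9. Shank1 was at -0.60 ± 0.38, Shank3 at -0.51 ± 0.39, Shank2 at -0.37 ± 0.36, Camk2b at -0.35 ± 0.40, and Dlg4 and Dlgap1 at -0.33, while Camk2a was at 0.044 ± 0.25. The median was -0.33, against -0.018 over all genes. No member passed (edgeR adjusted p of 0.488 to 0.913), with 0 genes called in all (0.0%; 1088 genes and 0 members at an unadjusted p below 0.05; DESeq2 0 genes). In CPM, Shank1 and Shank3 were lower without overlap, 2 of 9 members, against 5.65% of genes (8.84% in either direction). In cRPKM Shank3 overlapped, at 28.9 in KO inhibitor line 1 and 28.4 in KO vehicle line 3. Shank1 was nearly tied on that scale, at 29.6 in KO inhibitor line 2 and 29.7 in KO vehicle line 1. Leaving out KO inhibitor line 3 could not create an overlap in CPM, so it does not test the separation. Without that library Shank1 was at -0.21 (fold interval 0.707 to 1.06) and Shank3 at -0.10 (0.781 to 1.11). Camk2b, Dlg4, Dlgap1, Shank2, Homer1 and Nrgn changed sign, and the median was 0.015. The median log2 ratio of inhibitor to vehicle within a line was 0.0022 in KO line 1 and 0.012 in KO line 2, with 5 and 6 members higher, and -1.43 in KO line 3, where Camk2a alone was higher.

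The interaction term asked if KO and WT neurons responded differently to the inhibitor. All 9 members were negative, from -0.014 ± 0.30 for Nrgn to -0.66 ± 0.54 for Shank1, with Shank3 at -0.58 ± 0.56; scaled on neuronal markers 7 of 9 were above 0, and on library totals 1. None passed (edgeR adjusted p of 0.808 to 0.985; 0.0% of all genes called, with 185 genes and 0 members at an unadjusted p below 0.05; DESeq2 0 genes). Without KO inhibitor line 3 the median went from -0.38 to -0.013; Shank1 was at -0.26 and Shank3 at -0.17, and Camk2b, Homer1 and Nrgn were above 0. With the libraries of each line summed, KO against WT lines gave -0.22 ± 0.19 for Dlgap1, -0.20 ± 0.22 for Shank1 and 0.19 ± 0.15 for Nrgn as the extremes. None passed (edgeR adjusted p of 0.998 for each, over 16090 genes; 0.0% called, with 426 genes and 0 members at an unadjusted p below 0.05; DESeq2 134 genes or 0.661%, 0 members). Without KO line 3 these were -0.052, -0.011 and 0.19, and Camk2b was at 0.13 with a fold between 0.980 and 1.22. The comparisons share libraries, so their values for a member are not independent of each other.

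The KO inhibitor library of line 3 was described next, since it carried most of the differences above. Set against the median of the 9 libraries that do not stand apart, Shank3 was 4.08-fold lower in it, Shank1 3.95-fold, Camk2b 3.74-fold, Shank2 3.36-fold, Dlgap1 2.76-fold, Dlg4 2.75-fold and Homer1 2.36-fold. Camk2a (1.10-fold) and Nrgn (1.05-fold) lay within the range of the 9. The library was the lowest of 12 in 7 of the 9 members, against 39.0% of all genes, and the highest in 0, against 38.4%. The median log2 difference was -1.47 over the members, -1.14 over their 10 family paralogs, -1.62 over 28 other postsynaptic density genes, -1.19 over 16 genes of calmodulin and CaMKII regulation and -1.96 over the 10 general neuronal markers, against -0.082 over 13071 genes of at least 1 CPM. Astrocyte markers were at 3.40 and progenitor markers at 3.10. The part of the cell mix in the members' levels was not tested; scaled on the neuronal markers in place of all genes, 7 of 9 were above 0 in KO inhibitor against KO vehicle, with Camk2a at 1.00, Nrgn at 0.87 and Homer1 at 0.50, but that scaling also moved the median of all genes by 1.02. In the 2 other libraries that stand apart the members' medians were -0.26 (WT vehicle line 2) and -0.072 (WT inhibitor line 3), with 6 and 3 of 9 below all of the 9 libraries, against 30.5% and 27.4% of genes.

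**Figure D3:**
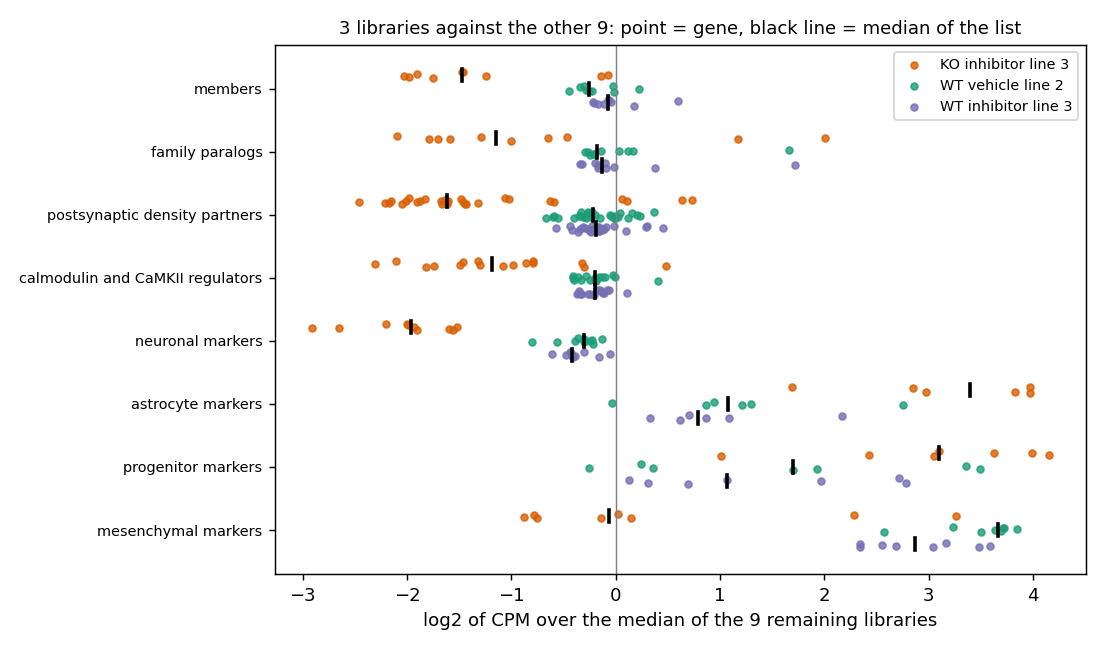
Log2 of CPM over the median of the 9 libraries that do not stand apart (x axis), for KO inhibitor line 3, WT vehicle line 2 and WT inhibitor line 3, with 1 point per gene of at least 1 CPM, lists as lines of points and their medians as black bars. In KO inhibitor line 3, 7 members lie between -2.03 and -1.24 while Camk2a (-0.14) and Nrgn (-0.069) lie near 0.

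Among the 7 members other than Camk2a and Nrgn, co-variation was strongest with the same library included. Over 12 libraries, which share this outlying point, the 21 pairs among these 7 had a Pearson's r of log2 CPM from 0.874 to 0.990. Without it the 21 values ran from -0.17 to 0.779, with 1 below 0. The 8 pairs with Camk2a ran from -0.263 to 0.228 over 12 libraries, and the 8 with Nrgn from -0.263 to 0.234. Over 11 libraries the pairs with Camk2a ran from -0.517 to 0.279, with 5 of 8 negative. Those with Nrgn ran from -0.846 (with Dlgap1) to 0.18, with 7 of 8 negative. Among 13415 genes, those with a profile most like the members' mean were Add2 (r of 0.993), Jph3, Camta2, Iqsec3 and Zfp365 (0.992 each), over 12 libraries. Their Spearman's rho ran from 0.65 to 0.734, and without KO inhibitor line 3 their r ran from 0.575 to 0.901. Add2 encodes an adducin of the spectrin-actin skeleton, Jph3 a neuronal junctophilin, Camta2 a calmodulin-binding transcription activator and Iqsec3 a synaptic exchange factor for ARF. Most opposite were Ak3 (-0.991), Washc3 (-0.979) and Mgat4a (-0.977). Without the 2 libraries farthest from the median of the members' mean, r fell to between 0.15 and 0.474 for the 5 genes most alike and lay between -0.505 and -0.0188 for the 3 most opposite, so the size of r rests on those libraries.

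Within the families, the make-up of the RNA was then compared as shares of summed cRPKM, which depend on the lengths used. In the CaMKII family Camk2b made up 46.3% ± 1.89 (SD, n = 11), Camk2g 29.7% ± 1.02, Camk2d 20.5% ± 1.56 and Camk2a 3.52% ± 0.865, so the alpha subunit was the smallest share in each of the 11 libraries (2.54% to 5.38%). In KO inhibitor line 3 Camk2a was at 8.42%, Camk2b at 35% and Camk2d at 28.7%. The 3 Shank genes were lower together there, with shares near those of the other libraries: Shank1 was at 45.6% ± 1.51 over 11 libraries and 44.9% in that library, Shank3 at 42.1% ± 1.36 and 40.9%, and Shank2 at 12.3% ± 0.573 and 14.2%, just above its range of 11.1% to 12.9%, while the summed level was 19.1 cRPKM against 54.9 to 76.2 in the other 11. In the Homer family the shares differed: Homer1 made up 48.8% ± 9.30 over 11 libraries and 17.9% in KO inhibitor line 3, where Homer3 was at 64.0%. Homer1 was also a low share in WT vehicle line 2 (30.2%) and WT inhibitor line 3 (36.3%), with Homer3 at 48.9% and 46.1% there and at 10.3% to 24.5% in the other 9. In the Dlg family Dlg4 was at 67.5% ± 1.19 and 52.7% in KO inhibitor line 3, with Dlg1 at 5.66% ± 0.767 and 26.0%. Among the Dlgap genes Dlgap3 was the largest over 11 libraries at 48.2% ± 0.908 (33.9% in KO inhibitor line 3), and Dlgap1 was at 17.3% ± 1.29 (15.6%). Dlgap4 was at 31.7% ± 0.97 over the 11 and at 48.9% in KO inhibitor line 3, the largest share there.

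**Figure D4:**
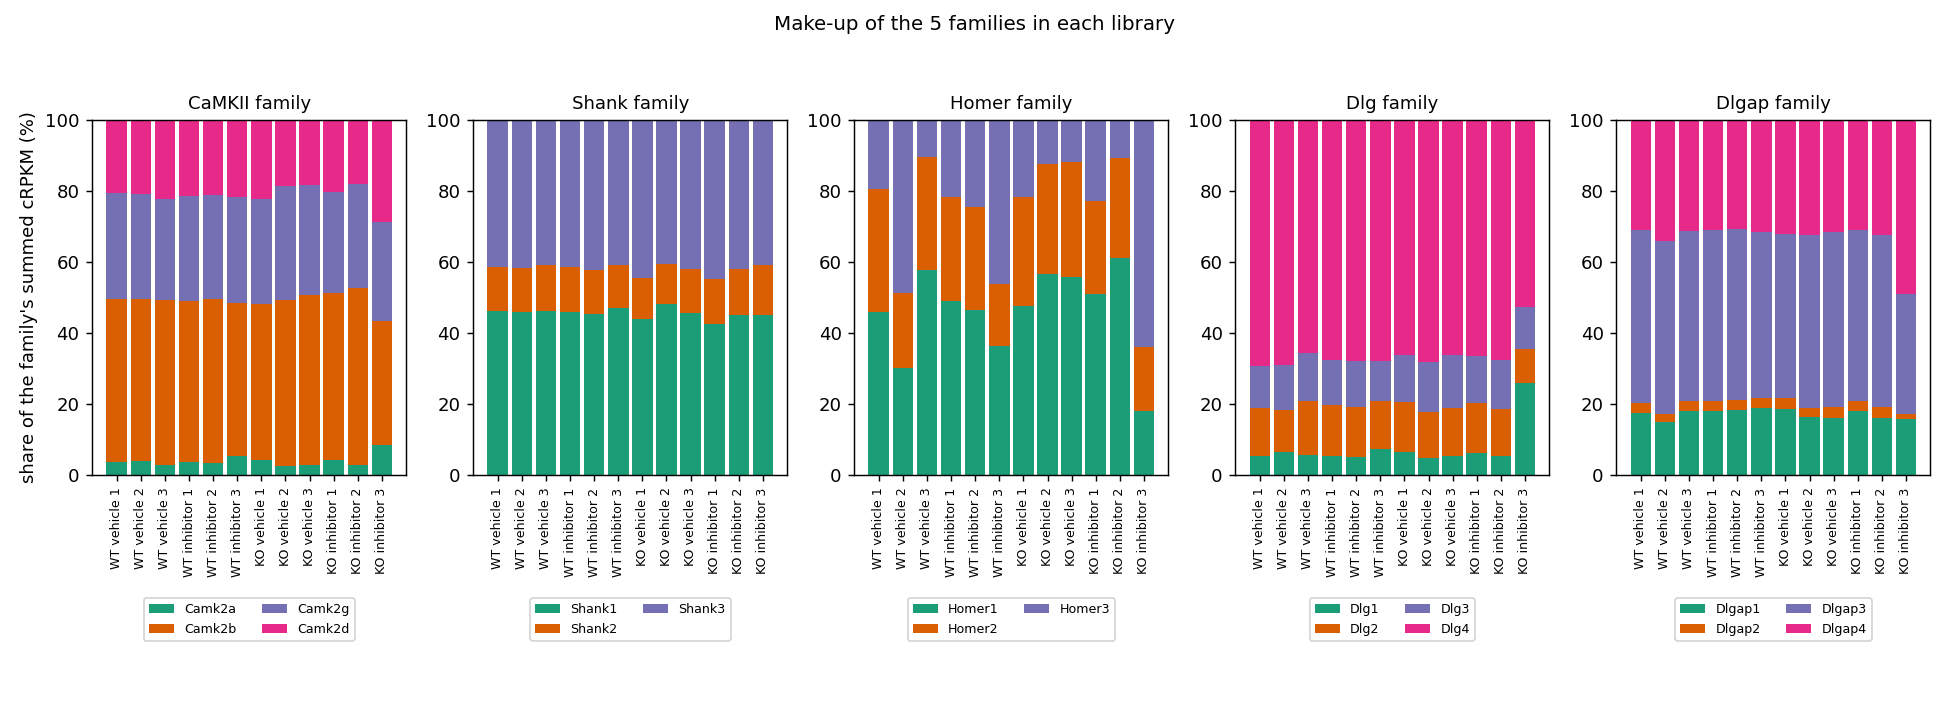
Share of each paralog in the summed cRPKM of its family (y axis, percent), with 1 bar per library. The Shank bars look alike in all 12 libraries, while Homer3, Dlg1 and Dlgap4 take larger shares in KO inhibitor line 3 (64.0%, 26.0% and 48.9%).

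The genes around the members were read from lists of 10 paralogs, 28 postsynaptic density partners and 16 genes of calmodulin and CaMKII regulation; 0 of these 54 genes passed in any of the 6 edgeR comparisons. Partners were higher in KO vehicle than in WT vehicle in 21 of 28 (median of 0.068), but in 14 without WT vehicle line 2 and in 3 when scaled on neuronal markers. They were lower in KO inhibitor than in KO vehicle in 26 of 28 (-0.35), but in 15 without KO inhibitor line 3 (-0.0064) and in 4 when scaled on neuronal markers. The regulators were higher in KO vehicle in 16 of 16, with a median of 0.16, where all genes were at -0.010; this was 14 of 16 and 0.10 when WT vehicle line 2 was left out, and 3 of 16 when scaled on neuronal markers. Calm2, the most abundant of them, was at 0.19 ± 0.26 and Calm3 at 0.11 ± 0.34 (edgeR adjusted p of 0.999 for both); the 3 calmodulin genes encode the same protein and their reads may be split uncertainly. The most abundant paralogs were Camk2g, at 0.19 ± 0.33 in KO vehicle, and Camk2d, at 0.010 ± 0.23. Ppp1r9b, which encodes the spine protein spinophilin that binds actin, was at -0.22 ± 0.29 in KO vehicle and Begain, a binder of Dlg4, at 0.25 ± 0.35 (edgeR adjusted p of 0.999 for each of these 4). In CPM, Camk2g and Calm2 were higher and Ppp1r9b lower in all 3 KO vehicle libraries than in any WT vehicle library, as in 7.62% (higher) and 4.90% (lower) of all genes. In cRPKM Camk2g overlapped, at 76.9 in KO vehicle line 1 and 79.0 in WT vehicle line 1.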

How the data were processed

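Libraries were stranded and poly(A)-selected, per the labels. The authors deposited, for each of 12 libraries, a read count and a cRPKM (RPKM with a correction of unstated kind) for 36902 genes; 3342 were NA. The genome build is mm10 per the submitters' processing notes; the aligner and counter are not given in the sources used here. Deposited counts were tested as they stand with edgeR 4.0.16 in R 4.3.3 (TMM, filterByExpr by group, robust glmQLFit, quasi-likelihood F test), all 12 libraries in 1 fit with a coefficient per group, 15443 genes, biological coefficient of variation 0.411; 16090 genes for sums of the libraries of each line (0.36). Genes were called at a Benjamini-Hochberg adjusted p below 0.05 over all genes tested. SE was taken as log2 fold change over root F.

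Alternatives were DESeq2 1.42.0, limma 3.58.1 on log2(cRPKM + 1), no filter, library totals, neuronal marker scaling, a replicate block, and leaving out each library; leaving out 3 libraries together and levels per exonic kilobase were chosen after seeing the data. The procedure was tested on simulated data. Vehicle and inhibitor libraries of a line are paired by the labelled cell line; their deviations from the group means correlated at 0.411, -0.553 and -0.723 in WT lines 1 to 3 and at -0.191, 0.574 and -0.373 in KO lines 1 to 3. KO and WT lines share only a number. The members and lists were chosen with earlier results of these data known. Genes named were the 9 members, the 2 most abundant of each related list and any called, and the 5 most and 3 least alike in profile (log2 CPM with a prior count of 2, mean of at least 1 CPM); markers give list levels, and other paralogs in the family shares were chosen after their values were seen.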

Additional observations from a re-analysis of the deposited data

How the results depend on the processing

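No alternative called a member. Of 963 log2 fold changes of members under alternatives, 858 kept their direction and 105 reversed, with a smallest adjusted p of 0.153. The replicate block changed no call. For KO against WT it used the line number, which the genotypes merely share, and Camk2a in vehicle was at -0.0046. For inhibitor against vehicle it paired the libraries of each line. In KO the paired estimates ran from -0.80 ± 0.39 for Shank1 and -0.73 ± 0.40 for Shank3 to 0.058 ± 0.21 for Camk2a (edgeR adjusted p of 0.64 to 0.909). DESeq2 called 10, 13 and 134 genes for KO against WT in vehicle, with inhibitor and in line sums, where edgeR called 0. Without a filter edgeR called 2 in line sums, and without the 3 libraries that stand apart 2 in vehicle and 1 with inhibitor; the causes were not tested. Scaling on neuronal markers, which shifts the median of all genes by -0.23 (vehicle), 0.82 (with inhibitor), -0.028 (WT), 1.02 (KO) and 1.04 (interaction), reversed for KO against WT in vehicle Camk2a -0.21, Camk2b -0.10, Shank1 -0.11, Shank3 -0.069, Homer1 -0.19, Nrgn -0.073, and for KO against WT with inhibitor Camk2a 0.49, Camk2b 0.0067, Dlg4 0.013, Homer1 0.22, and for inhibitor against vehicle in WT Dlg4 -0.0087, and for inhibitor against vehicle in KO Camk2b 0.11, Dlg4 0.26, Dlgap1 0.28, Shank2 0.15, Homer1 0.50, Nrgn 0.87, and for the interaction Camk2a 0.69, Camk2b 0.11, Dlg4 0.26, Dlgap1 0.22, Shank2 0.14, Homer1 0.41, Nrgn 0.95. Leaving out the 3 libraries reversed for KO against WT in vehicle Homer1 -0.12, and for KO against WT with inhibitor Camk2a 0.066, Camk2b 0.13, Homer1 0.16, and for inhibitor against vehicle in WT Shank1 -0.026, Shank2 -0.03, Homer1 -0.079, and for inhibitor against vehicle in KO Camk2b 0.079, Dlg4 0.026, Dlgap1 0.019, Shank2 0.028, Homer1 0.20, Nrgn 0.042, and for the interaction Camk2a 0.018, Camk2b 0.079, Shank2 0.058, Homer1 0.28, Nrgn 0.12. Library totals reversed for KO against WT in vehicle Camk2a -0.012, Homer1 -0.026, and for the interaction Nrgn 0.042. No filter reversed for inhibitor against vehicle in WT Camk2b -0.0019, Dlg4 -0.0069, Shank2 -0.0036, and for the interaction Nrgn 0.032. limma reversed for KO against WT in vehicle Camk2a -0.028, Homer1 -0.0069, and for the interaction Nrgn 0.051. DESeq2 reversed for the interaction Nrgn 0.022. Leaving out 1 library in turn gave these ranges of log2 fold change where the direction changed. For KO against WT in vehicle these were Camk2a -0.23 to 0.17, Dlg4 -0.059 to 0.026, Dlgap1 -0.11 to 0.02, Shank1 -0.0028 to 0.19, Shank2 -0.12 to 0.055, Homer1 -0.12 to 0.19. For KO against WT with inhibitor these were Camk2b -0.57 to 0.15, Homer1 -0.43 to 0.12. For inhibitor against vehicle in WT these were Camk2b -0.072 to 0.10, Dlg4 -0.016 to 0.075, Dlgap1 -0.023 to 0.13, Shank1 -0.081 to 0.14, Shank2 -0.11 to 0.10, Shank3 -0.057 to 0.15, Homer1 -0.077 to 0.26, Nrgn -0.16 to 0.031. For inhibitor against vehicle in KO these were Camk2a -0.16 to 0.29, Camk2b -0.66 to 0.067, Dlg4 -0.55 to 0.013, Dlgap1 -0.59 to 0.0063, Shank2 -0.63 to 0.015, Homer1 -0.35 to 0.19, Nrgn -0.23 to 0.039. For the interaction these were Camk2b -0.68 to 0.036, Homer1 -0.44 to 0.11, Nrgn -0.18 to 0.098. For KO against WT in line sums these were Camk2a -0.31 to 0.026, Camk2b -0.20 to 0.13, Shank3 -0.26 to 0.077, Homer1 -0.17 to 0.061.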
